A study of Sus scrofa with 12 samples.

Results

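The genes described here are 9 core components of autophagy, ATG5, ATG7, ATG12, ATG16L1, BECN1, GABARAPL1, MAP1LC3B, WIPI1 and WIPI2, followed through peak lists of N6-methyladenosine (m6A), the methyl mark on adenosines inside mRNA. Every peak whose listed gene carried one of these names was taken, which gave 32 of the 13487 peaks and 9 of the 2159 genes with a peak. The assay was MeRIP-seq, in which fragmented mRNA is pulled down with an m6A antibody and set against input fragments from the same mRNA. The tissue was longissimus dorsi, the long back muscle, of pigs aged 5 days. The Ningxiang group, a Chinese indigenous breed, and the Large White group, a breed selected for lean growth, had 3 replicates each, with an immunoprecipitated and an input library for every replicate. No treatment, sex or transgene is labelled, and nothing in the labels ties a replicate to a separate animal. The p-values therefore reflect the scatter of these samples alone, which may be technical scatter. The study's question was the identity of the m6A-marked mRNAs behind muscle development in the 2 breeds.

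Autophagy encloses cytoplasm in a double membrane, the autophagosome, and delivers it to lysosomes for breakdown. A lipid kinase complex that contains BECN1 makes phosphatidylinositol 3-phosphate on the membrane where the autophagosome forms. WIPI proteins read that lipid, and WIPI2 recruits ATG16L1. ATG7 activates the ubiquitin-like proteins ATG12 and the LC3 and GABARAP family. ATG12 joined to ATG5 and bound to ATG16L1 then directs the attachment of LC3 and GABARAP proteins to the membrane. In skeletal muscle the pathway is known for removing damaged mitochondria and protein aggregates and for its part in both atrophy and the upkeep of muscle mass.

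A list named at most 5 of the 9 genes. In Ningxiang lists 5, 5 and 5 of the genes had a peak, and in Large White lists 3, 5 and 4. Peaks on these genes numbered 5, 8 and 5 in Ningxiang and 4, 6 and 4 in Large White, and covered 1330 ± 155 exonic bases per list in Ningxiang and 1309 ± 132 in Large White (SD, n = 3 each). The totals were close while the genes behind them differed. The lists as a whole held 2034 to 2222 peaks in Ningxiang and 2214 to 2533 in Large White. The depth of the libraries is unknown, and the absence of a peak means only that the signal did not pass the authors' threshold, not that the mRNA carried no m6A. In bulk muscle, fewer cells of a type and less RNA per cell cannot be told apart, and transcript levels were not analysed here. Of 8 skeletal muscle markers looked up, 6 had a peak in all 6 lists, among them DES, MYH1 and CKM, while ACTA1 and TTN had none. TTN, like COL1A1 and PTPRC among the other markers, has no curated RefSeq transcript under its symbol. Markers of other cells with a peak in all 6 lists were FABP4 of fat cells (1 of 3 fat markers), PDGFRA of fibroblasts (1 of 3), CD68 of macrophages (1 of 2 immune markers) and PECAM1 and CDH5 of endothelium (2 of 2). Their part in the results was not tested.

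WIPI1 and WIPI2 had a peak in 3 of 3 Ningxiang lists and in 0 of 3 Large White lists. Of all 2159 genes, 16 had that pattern (0.741%), and 29 had the opposite one (1.34%); none of the 9 genes had the opposite one. With equal numbers of peaks from every list these counts were 28 and 23, and with folds of at least 2 they were 14 and 23. The breed with more thus changed under the first of these choices. Taking equal numbers also dropped the weakest peaks by p from the longer lists, and the cause was not tested. Such a split of the lists has p = 0.1 (Fisher's exact test, two-sided), the smallest that 3 lists against 3 allow, and its adjusted p was 1 over 2159 genes (Benjamini-Hochberg). No gene in the lists reached an adjusted p of 0.05 by Fisher's exact test, and 0 had an unadjusted p below 0.05. The 9 genes were chosen with this pattern already known, so the count of 2 of 9 is a description. ATG5 and ATG16L1 had peaks in all 6 lists, as did 35.7% of all genes. ATG12 had one in 4 lists, BECN1 in 2, and ATG7, GABARAPL1 and MAP1LC3B in 1 list each, as did 18.2% of all genes.

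**Figure D1:**
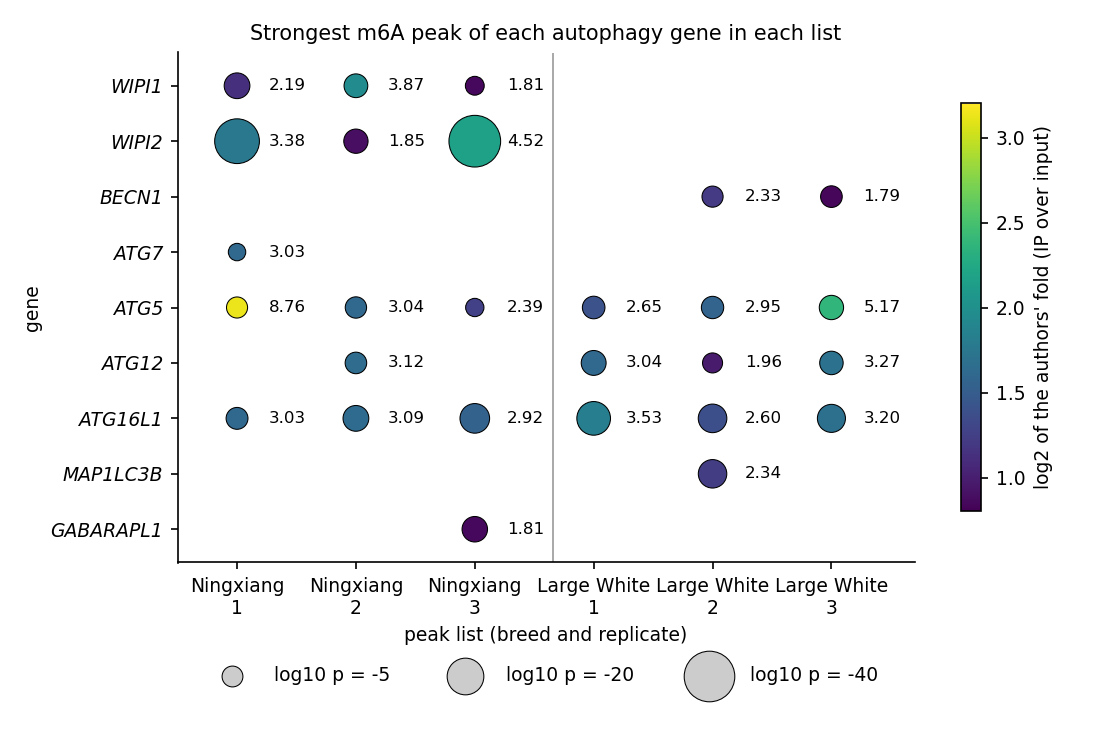
The peak with the lowest p-value for each of the 9 genes (rows) in each of the 6 lists (columns, Ningxiang left of Large White). Circle area rises with the size of log10 p, colour gives log2 of the authors' fold of immunoprecipitated over input signal, and the printed number is that fold; WIPI1 and WIPI2 have circles in the 3 Ningxiang columns, BECN1 and MAP1LC3B in Large White columns.

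WIPI2, which binds phosphatidylinositol 3-phosphate and brings ATG16L1 to the forming membrane, had 1 peak in every Ningxiang list, at the same place each time. The peak had a fold of 3.38, 1.85 and 4.52 over input in Ningxiang replicates 1, 2 and 3, with a log10 p of -30.8, -7.56 and -41.8. It was stronger by p than 84.1% and 86.1% of the peaks of replicates 1 and 3, and stronger than 38.3% of those of replicate 2. By rank within its own list, replicate 2 was thus the weak one of the group. Folds and p-values come from the authors' peak calls, and ranks are taken against other peaks of the same list. Medians given further on pool peaks of different lists and are descriptions. Neither value was tested between lists or breeds. On build susScr11 the gene lies on the plus strand of chromosome 3, from 3800208 to 3830962. The peaks were listed in the 3′ untranslated region and crossed 1 splice junction. Their upstream block lay within 3829475 to 3829600 and held 37, 7 and 126 bases in replicates 1, 2 and 3. Their downstream block lay within 3830343 to 3830604 and held 203, 262 and 262 bases. The peaks ended 417, 358 and 358 bases before the end of the gene. Large White lists had 0 bases at both blocks.

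WIPI1, a second reader of the same lipid, had peaks in the same 3 lists, but spread along the gene. It lies on the plus strand of chromosome 12, from 11715332 to 11752009, and its transcript has 13 exons. Ningxiang replicate 1 had 1 peak over exons 10 to 12, with 240 exonic bases, a fold of 2.19 and a log10 p of -8.74. Replicate 2 had 3 peaks with 512 exonic bases together. They lay over exons 2 to 4, over exons 6 to 8 and at the 3′ end of the gene, with folds of 2.49, 2.0 and 3.87. Replicate 3 had 1 peak over exons 1 to 3, with 180 exonic bases, a fold of 1.81 and a log10 p of -3.70. No exonic base position of WIPI1 was held by all 3 lists. Replicates 2 and 3 shared 7 bases of exon 2, at 11721205 to 11721211, and 84 bases of exon 3, at 11723458 to 11723541. Replicate 1 shared no block with either. All 5 WIPI1 peaks were weaker by p than the median peak of their own list, and the replicate 3 peak was stronger than 8.06% of its list. The 3′ peak of replicate 2 also overlaps the neighbouring gene ARSG in the RefSeq table, so its assignment is uncertain; replicate 2 has its other 2 WIPI1 peaks without it.

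WIPI2 kept more of its peaks than WIPI1 under 2 of 3 stricter choices. With the strongest 2034 peaks taken from every list, WIPI2 kept its peak in 3 of 3 Ningxiang lists and WIPI1 in 2 of 3. With folds of at least 2 each was left with 2 of 3. Within the top 50% of each list by p, WIPI2 had 2 of 3 and WIPI1 had 0 of 3. Large White stayed at 0 of 3 in each case. Among the other 15 genes with peaks in all Ningxiang lists and no Large White list, the nearest to WIPI2 in exonic bases per list were MDH2, PM20D1 and SERPINH1, at distances of 0.43, 0.78 and 0.79 (Euclidean, on log2 of bases plus 1, 6 lists). The nearest to WIPI1 were WDR62, ARV1 and PM20D1, at 0.97, 1.01 and 1.23. Of those 15 genes, WIPI2 was the sixth nearest to WIPI1, and WIPI1 the fourteenth nearest to WIPI2.

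**Figure D2:**
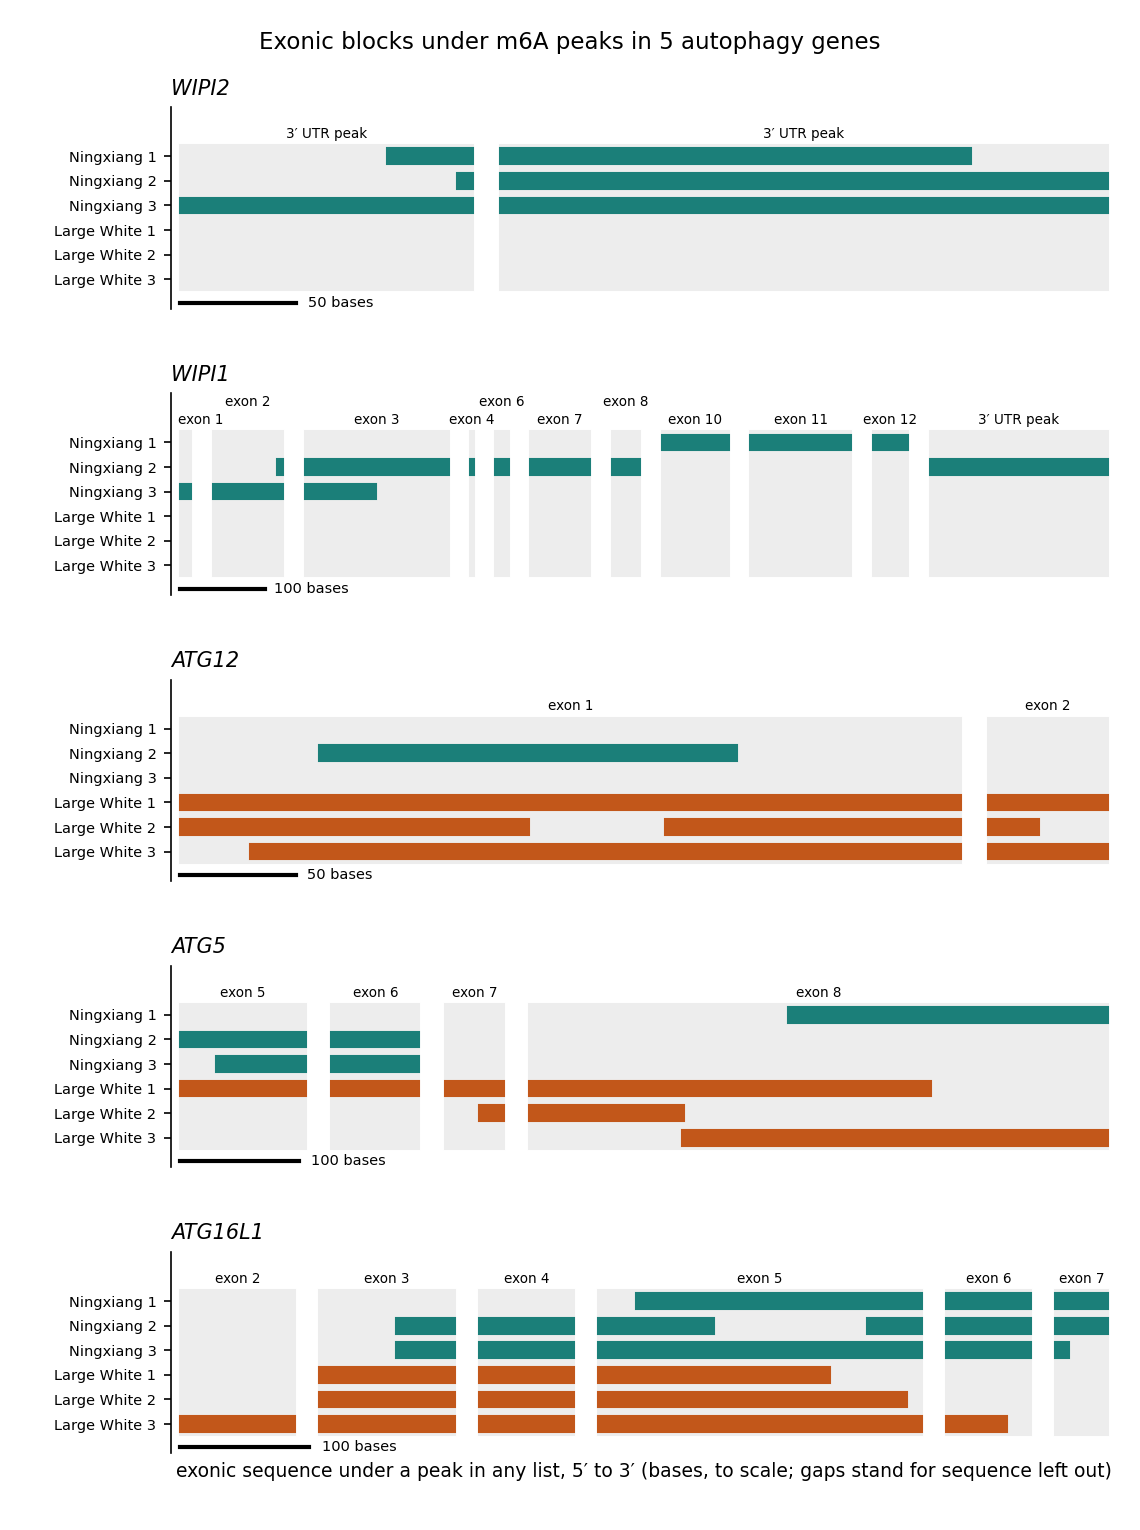
Exonic blocks under peaks in WIPI2, WIPI1, ATG12, ATG5 and ATG16L1, one row per list with Ningxiang rows above Large White rows, drawn 5′ to 3′ and to scale in bases; grey marks sequence covered in any list and white gaps stand for sequence left out. The 3 Ningxiang bars of WIPI2 stack over the same blocks, those of WIPI1 do not, and in ATG16L1 Ningxiang bars reach exon 7 while Large White bars end in exon 5 or 6.

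BECN1, the scaffold of the phosphatidylinositol 3-kinase complex, had no peak in Ningxiang lists and a peak in 2 of 3 Large White lists (Fisher's exact test, two-sided p = 0.4, adjusted p = 1 over all genes). It lies on the plus strand of chromosome 12, from 20041970 to 20053488. The peaks did not share a site. Large White replicate 2 had 120 bases at the end of the gene, from 20053369 to 20053488 in the 3′ untranslated region, with a fold of 2.33 and a log10 p of -5.19. Large White replicate 3 had 149 bases in exon 7 of 12, from 20048172 to 20048320, with a fold of 1.79 and a log10 p of -5.56. Large White replicate 1 had none. Without that list BECN1 was Large White only, with a peak in 0 of 3 Ningxiang lists and in 2 of 2 Large White lists. Leaving out the only Large White list without a peak must give this, so it adds no evidence. Over all genes, 55 were then Large White only, against 29 with all lists. Of the peaks in their own lists, 24.1% and 23.1% were weaker by p.

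Of the conjugation genes, ATG5, ATG12 and ATG16L1 had peaks in 4 or more lists and ATG7 in 1. ATG7, the activating enzyme of both conjugation reactions, had 1 peak, in Ningxiang replicate 1. It covered 120 bases of the 3′ untranslated region on chromosome 13, from 67696855 to 67696974, 89 bases before the end of the gene. Its fold was 3.03 and its log10 p -2.85, so that only 1.67% of that list was weaker.

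ATG12, the ubiquitin-like protein that is joined to ATG5, was covered more widely in Large White. Exonic bases under its peaks were 0, 181 and 0 in Ningxiang replicates 1, 2 and 3, against 390, 301 and 360 in Large White replicates 1, 2 and 3. Every Large White list lay above every Ningxiang list, with means of 60.3 ± 104.5 in Ningxiang and 350 ± 45.3 in Large White (SD, n = 3 each; difference -290 bases; exact permutation test, two-sided p = 0.1, adjusted p = 0.935 over all genes). Of all genes, 7.78% had Large White lists all above Ningxiang lists on this measure and 2.92% the reverse, and the 9 genes gave 1 and 2. WIPI1 and WIPI2 are the 2, with means of 311 ± 177 and 299 ± 78.4 bases in Ningxiang and 0 in Large White. No gene reached an unadjusted p below 0.05 by that permutation test, which cannot go under 0.1. With the strongest 2034 peaks of every list, or with folds of at least 2, ATG12 no longer separated the breeds, with a peak in 1 Ningxiang and 3 Large White lists. Within the top 50% by p it had a peak in 0 lists of either breed.

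The peaks of ATG12 lay at the 5′ end of its transcript. The gene is on the minus strand of chromosome 2, from 119948443 to 119965702, with 4 exons. All lists with a peak held part of exon 1, at 119965335 to 119965672: 181 bases in Ningxiang replicate 2, against 338, 279 and 308 in Large White replicates 1, 2 and 3. In every Large White list a peak also ran across the splice junction into exon 2, at 119955763 to 119955814, with 52, 22 and 52 bases. No Ningxiang peak did. Folds in the order of the lists were 3.12 in Ningxiang replicate 2, and 3.04, 2.65 and 3.27 for the highest in each Large White list. The log10 p of the strongest peak was -5.50 in Ningxiang, and -8.04, -4.46 and -6.92 in Large White. In Large White replicate 2 the fold and the log10 p given came from different peaks. The fold of 2.65 belonged to a peak in exon 1 alone, with a log10 p of -2.50. The peak that crossed the junction had a fold of 1.96. AP3S1 overlaps the 5′ end of ATG12 in the RefSeq table, and 4 of the 5 ATG12 peaks, at least 1 in every list that had one, reached into it. AP3S1 had no listed peak, and reads of the 2 genes cannot be told apart there without a stated strand setting, so that part of exon 1 is uncertain; the exon 2 block is not affected.

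ATG5, the partner to which ATG12 is attached, had peaks in all 6 lists at different parts of the transcript. It lies on the minus strand of chromosome 1, from 72403091 to 72520396, with 8 exons. Exonic bases under peaks were 270, 180 and 150 in Ningxiang and 569, 151 and 359 in Large White, so the breeds overlapped (means 200 ± 62.5 and 360 ± 209, SD, n = 3 each; exact permutation test, two-sided p = 0.3, adjusted p = 1). Without Large White replicate 2 they did not overlap. That list, with 151 bases, was the only Large White list not above every Ningxiang list. The outcome was thus fixed in advance and adds no evidence. Over all genes, 328 then had Large White above, against 168 with all lists. Part of exon 8, the last exon, at 72405060 to 72405547, was covered in 1 Ningxiang list and in 3 Large White lists. Exons 5 and 6, at 72477057 to 72477162 and 72454586 to 72454659, were covered together in Ningxiang replicates 2 and 3 and in Large White replicate 1. The blocks in exon 8 did not all overlap each other: that of Large White replicate 2 was upstream of the block of Ningxiang replicate 1. The highest folds were 8.76, 3.04 and 2.39 in Ningxiang and 2.91, 2.95 and 5.17 in Large White. The fold of 8.76 exceeded 97.6% of its list, but its log10 p of -5.17 was stronger than only 22.8%. All 7 ATG5 peaks were weaker by p than the median of their list.

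ATG16L1, which fixes where the ATG12-ATG5 conjugate acts, had peaks over 1 stretch of neighbouring exons in all 6 lists. It lies on the plus strand of chromosome 15, from 133651464 to 133691766, with 18 exons, and its peaks fell between exon 2 and exon 7. Exonic bases under peaks were 330, 360 and 449 in Ningxiang and 360, 420 and 568 in Large White, which overlapped (means 380 ± 61.9 and 449 ± 107, SD, n = 3 each; exact permutation test, two-sided p = 0.5, adjusted p = 1). The highest fold was 3.03, 3.09 and 2.92 in the Ningxiang lists and 3.53, 2.6 and 3.2 in the Large White lists, each above the median fold of its own list. Exon 5, at 133661309 to 133661560, was the only one of 32 covered blocks of the 9 genes held by all 6 lists, with 223, 133 and 252 bases in Ningxiang and 180, 240 and 252 in Large White. Of all exonic blocks in the lists, 15.1% were held by all 6.

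The extent of the ATG16L1 peaks differed at both edges. Exon 7, at 133668678 to 133668718, was covered by 41, 41 and 11 bases in Ningxiang and by 0 in each Large White list. Exon 6, at 133665964 to 133666029, was covered over all of its 66 bases in the 3 Ningxiang lists and over 0, 0 and 47 bases in Large White. At the other edge exon 3, at 133659574 to 133659679, was covered by 0, 46 and 46 bases in Ningxiang and by all 106 in each Large White list. Exon 2 was covered in Large White replicate 3 alone. Peaks thus began further upstream in Large White and ended further downstream in Ningxiang. A single peak spans several of these exons, so they are not separate sites, and gene-level coverage overlapped between the breeds as given above.

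Blocks held by 3 of 3 lists of a breed and by 0 of 3 of the other were few. Merged over the lists, the 9 genes had 32 exonic blocks. Of these, 3 were Ningxiang only, namely both WIPI2 blocks and exon 7 of ATG16L1, against 0.685% of the 9348 blocks of all genes. Only 1 was Large White only, exon 2 of ATG12, against 1.78% of all. When a list had to cover at least 50 bases of a block, the Ningxiang blocks were the downstream WIPI2 block and exon 6 of ATG16L1, and the Large White block was exon 3 of ATG16L1. The downstream block of WIPI2 was thus the one that both limits gave. The covered block of ATG16L1 exon 7 is 41 bases long, so it could not pass the second limit. The 2 new ATG16L1 blocks arose from counts just under that limit. Exon 6 had 47 bases in Large White replicate 3, and exon 3 had 46 in Ningxiang replicates 2 and 3. The share of all blocks called at 50 bases was not counted, so these blocks are a description. Of the 32 blocks, 17 were held by 1 list (53.1%), as were 35.9% of all blocks; 9 of the 17 lie in WIPI1.

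The ubiquitin-like proteins that mark the autophagosome membrane each had 1 peak. GABARAPL1, of the GABARAP branch, had none in Large White and 1 in Ningxiang replicate 3, over exons 2 and 3 of 4, with 121 exonic bases within 61760985 to 61762184 on chromosome 5 (minus strand). Its fold was 1.81 and its log10 p -8.55. MAP1LC3B, the LC3 protein used to count autophagosomes, had none in Ningxiang and 1 in Large White replicate 2, over exons 1 and 2 of 4, with 180 exonic bases within 1925968 to 1941069 on chromosome 6 (minus strand). Its fold was 2.34 and its log10 p -11.2, stronger than 55.4% of that list. With 1 list of 6, neither gene can be set between breeds (Fisher's exact test, two-sided p = 1 for each).

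**Figure D3:**
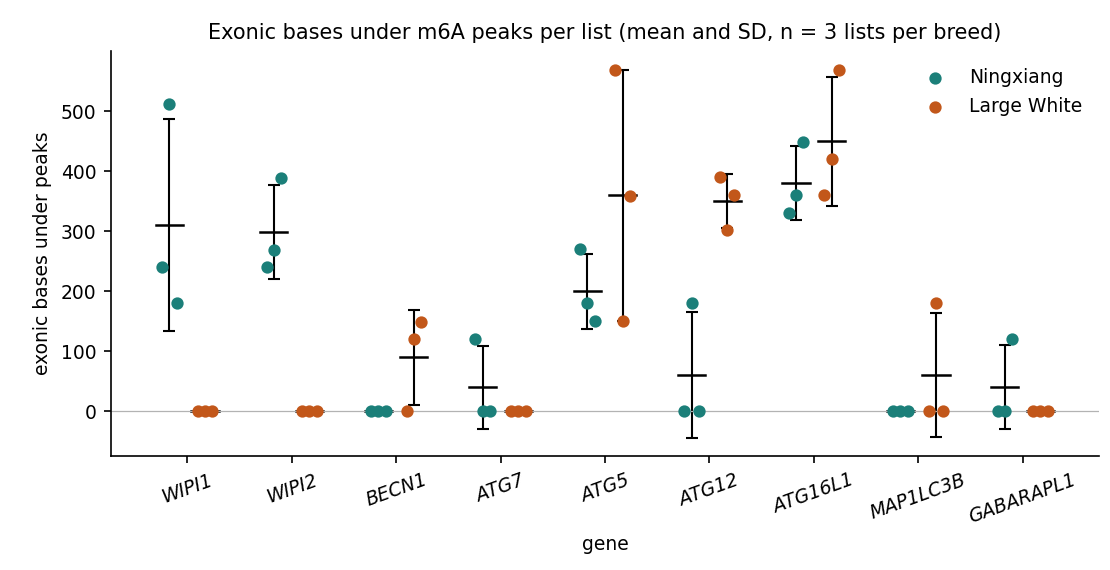
Exonic bases under peaks for each of the 9 genes, with 1 point per list, Ningxiang left of Large White in each gene, and black bars for the mean and SD of 3 lists. WIPI1 and WIPI2 lie at 0 in all Large White lists, ATG12 reaches 181 in Ningxiang and 301 to 390 in Large White, and ATG5 and ATG16L1 overlap.

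As a group the peaks were weak by p but not by fold. The median log10 p of the 32 peaks was -6.50, with -6.24 in Ningxiang and -6.59 in Large White, where all 13487 peaks had a median of -10.0. Of the 32, 26 were weaker by p than the median of their own list, 15 of 18 in Ningxiang and 11 of 14 in Large White. The exceptions were 2 WIPI2 peaks and 1 ATG16L1 peak in Ningxiang, and 2 ATG16L1 peaks and the MAP1LC3B peak in Large White. The median fold was 2.92, against 2.53 over all peaks, and ranged from 1.79 to 8.76. Of the 32 peaks, 24 crossed a splice junction (75.0%), against 56.5% of all peaks. The final 10% of the gene, introns included, held the midpoints of 10 of the 32 (31.2%), against 35.5% of all peaks. The first 10% held 2 of the 32, against 5.91% of all. The lists hold no nucleotide sequence, so the bases under these peaks were not analysed here.

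**Figure D4:**
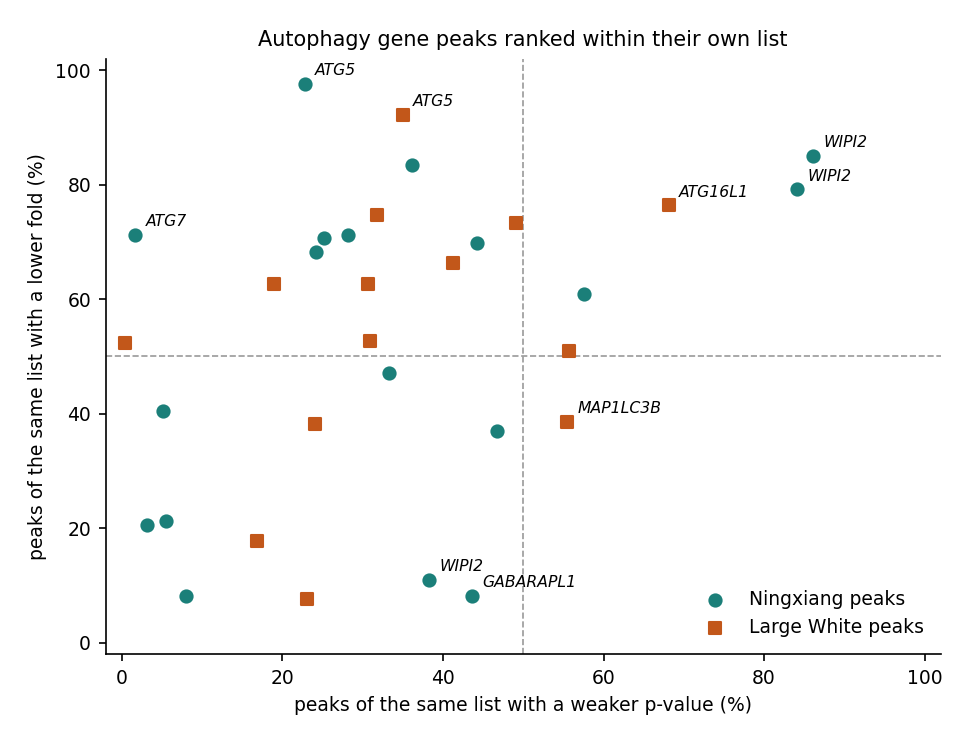
Each of the 32 peaks placed by the share of its own list with a weaker p-value (horizontal axis, %) and with a lower fold (vertical axis, %), Ningxiang as circles and Large White as squares, with dashed lines at 50%. Most points lie left of the vertical line, and the WIPI2 peaks of Ningxiang replicates 1 and 3 lie farthest to the right.

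Of 65 other genes of the pathway, 20 had a peak in any list, and none was confined to 1 breed in 3 of 3 lists. Over all genes with a peak, 0.741% were confined to Ningxiang in that way and 1.34% to Large White. By symbol 24 of the 65 have a curated RefSeq transcript, the kind on which peaks were listed, and 19 of the 20 are among them; FOXO1 is the other. None of the 5 listed genes of the initiating ULK1 complex has one under its symbol, and none had a peak. Of all genes with a curated transcript, 52.8% had a peak in any list. Peaks in all 6 lists were found on 7 of the 20, a share near the 35.7% of all genes with a peak. These were OPTN, a receptor for ubiquitinated cargo, LAMP1 of the lysosomal membrane, the lysosomal protease CTSB, the transcription factors FOXO1 and FOXO3, which induce autophagy genes in muscle, and PRKAA1 and PRKAA2, the catalytic subunits of the energy sensor AMPK. The highest LAMP1 folds were 4.15, 3.74 and 4.23 in Ningxiang and 4.80, 3.67 and 4.36 in Large White. Exonic bases on PRKAA2 were 209, 419 and 299 in Ningxiang and 597, 479 and 449 in Large White, so that every Large White list was above every Ningxiang list, the only such gene of the 20. None of the 20 had the reverse. Over all genes with a peak the shares were 7.78% with Large White above and 2.92% with Ningxiang above.

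The other relatives of WIPI1 and WIPI2 did not share their pattern. WDR45B, which belongs to the same family of phosphoinositide-binding propellers, had peaks in 3 Ningxiang and 2 Large White lists, with 682, 326 and 119 exonic bases in Ningxiang and 474, 208 and 0 in Large White. WDR45, its close relative, had 1 peak, in Large White replicate 2. PIK3C3, the lipid kinase that acts with BECN1, had peaks in Ningxiang replicates 1 and 3, with 241 and 151 exonic bases, and none in Large White (Fisher's exact test, two-sided p = 0.4). The lipid transfer proteins ATG2A and ATG2B had peaks in 2 Ningxiang lists each, and in 1 and 2 Large White lists. ATG9A, the scramblase of the seed vesicles, had a peak in Ningxiang replicate 1 only. In the conjugation step ATG4C had peaks in 2 Ningxiang lists, ATG4D in 1 list of each breed, and ATG4B and ATG10 in 1 Large White list each; MAP1LC3A had one in Ningxiang replicate 3. LAMP2 had peaks in 1 list of each breed and MITF in 2 of each.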

How the data were processed

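Per the labels, 12 samples were made, and the 6 deposited peak lists, 1 per replicate, were assigned to the immunoprecipitated sample whose description names them. Per the submitters' processing notes, FastQC 0.11.9, ChIPseeker 1.30.2 and HOMER were used, with susScr11 as the build; aligner and caller are not given in the sources at hand. Per the file headers, each deposited peak has exonic blocks, a p-value, its log10 (a score used to rank peaks) and a fold, the ratio of immunoprecipitated over input signal. The highest p-value of a peak was 0.0087 and the lowest fold 1.53. Depth is unknown.

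Starts count from 0 (441 peaks begin 1 base before their gene's listed start), so 1 was added. Exon numbers rise along the chromosome on both strands and were turned round for minus-strand genes. Each further block of a peak was taken as the next exon; over all genes 99.4% of 14076 overlapping block pairs then had the same number. Bases under peaks were counted over the union of blocks per gene and list.

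A gene was breed-only with a peak in 3 of 3 lists of a breed and 0 of 3 of the other. Fisher's exact test and an exact permutation test of the means, both two-sided, were run on 2159 genes with Benjamini-Hochberg adjustment (Python 3.11.15, pandas 2.3.3, NumPy 2.4.6, SciPy 1.17.1). Breed-only genes planted in simulated coverage checked only that the code follows the breed-only rule, and false calls were not measured. The 9 genes and the lists of other genes were chosen with earlier results of these data known. All 9 genes were named, with every other autophagy gene that had a peak, and the 3 genes nearest to each breed-only member. Genes overlapping a member came from RefSeq on Sscrofa11.1, by which 8 of the 9 have a curated transcript under their symbol; ATG5 has one in the deposited lists only.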

Additional observations from a re-analysis of the deposited data

How the results depend on the processing

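WIPI1 was no longer breed-only with equal numbers of peaks, with folds of at least 2 or with the stronger 50% by p, and WIPI2 was not under the last 2. Leaving out a list cannot end a split of 3 lists against 0, so it was no check on either gene. ATG12 became Large White only without Ningxiang replicate 2, and BECN1 without Large White replicate 1. In each gene the list left out was the only one that broke the pattern, so the outcome was fixed in advance. The number of the 9 genes per list, Ningxiang minus Large White, was 1 with all peaks, 0.333 with equal numbers of peaks or folds of at least 2, and 0 with the stronger 50% by p; it was 0.5 without Large White replicate 1 and 1.5 without Large White replicate 2.

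Over all genes, 28 were Ningxiang only and 23 Large White only with equal numbers of peaks, 9 and 25 with the stronger 50%, and 16 and 29 with all peaks. At equal list length Ningxiang thus had the larger count. With the stronger 50%, exonic bases separated the breeds in 26 genes with Ningxiang above and 103 with Large White above, against 63 and 168. Leaving out a list gave 22 to 41 Ningxiang only and 44 to 69 Large White only genes. It gave 89 to 145 genes with Ningxiang above and 223 to 328 with Large White above. A rule over 5 lists asks less than one over 6. In the 9 genes it gave 3 to 5 Ningxiang only and 1 to 2 Large White only blocks. With the stronger 50% there were 0 and 0 such blocks, and with folds of at least 2 there were 1 and 0. Blocks of all genes were not counted under these settings. Whether the blocks of the 9 genes changed differently from all blocks is therefore not known. Apart from the rule over fewer lists, the cause was not tested.

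With a replicate block, lists were paired by number. By exonic bases, 124 genes had Ningxiang above in every pair and 286 had Large White above (exact paired p = 0.25, the smallest that 3 pairs allow). The breed-only genes were 16 and 29 as before. Any pairing must give these 2 counts, so they were no check. Deviations from the breed mean correlated at 0.029, 0.0134 and -0.0351 over genes for replicates 1, 2 and 3. Not every list correlated best with its own number. With 3 lists per breed these deviations depend on each other, so they cannot show whether lists of the same number share a batch.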
